A study of Homo sapiens with 12 samples.

Results

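The genes described are 36 axon guidance genes of the ephrin, netrin and slit systems, followed in KELLY, an established human neuroblastoma cell line with amplified MYCN. They were listed by gene symbol, with earlier results of these data known, and each symbol had 1 row among the 55771 rows of the deposited table. The libraries came from cells given the BPS1, BPS2 or control oligonucleotide (4 libraries each), delivered as a morpholino complexed with a DNA leash and lipid at 50 nM for 48 h in 4% serum. The cells were plated for 24 h in 10% serum beforehand. The study asked which RNAs differ once the long NEAT1 transcript and paraspeckles are raised. All 3 groups shared the cell line, the lipoplex treatment and the lowered serum, and an untreated group was not analysed here.

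Guidance cues tell a growing axon or a migrating neural crest cell where to go. Eph receptors form a large family of receptor tyrosine kinases and bind ephrins on neighbouring cells: ephrin-A ligands are held by a lipid anchor, ephrin-B ligands span the membrane, and signals run into both cells. Netrins are secreted, and DCC and neogenin usually mediate attraction to them while UNC5 receptors mediate repulsion. Slits are large secreted proteins that repel cells carrying Robo receptors. The sympathetic lineage from which neuroblastoma arises migrates under such cues.

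The normalized counts of a library summed to 29.6 to 33.3 M. Control replicate 1 and BPS1 replicate 4 stood apart, with deviations from the gene medians of 0.471 and 0.594 (SD over genes, log2 scale) against 0.377 to 0.425 in the other 10 libraries. The deviation rose with transcript GC content in these (Spearman's rank correlation across protein-coding genes of 0.227 and 0.348) and, less, in BPS2 replicates 2, 3 and 4 (0.122 to 0.210). It fell with GC content in control replicates 2, 3 and 4, BPS1 replicates 1, 2 and 3 and BPS2 replicate 1 (−0.220 to −0.096). NEAT1, the gene the oligonucleotides are aimed at, averaged 2024 ± 420 in BPS1, 4262 ± 412 in BPS2 and 6879 ± 264 in control (SD, n = 4 each), so its total row was lower with both oligonucleotides; that row does not separate the long transcript. The 10 adrenergic neuroblastoma markers were all present, with a summed normalized count of 198498 to 256826 in BPS1, 234052 to 249867 in BPS2 and 261036 to 315241 in control. That sum follows mainly CHGA and MYCN, which averaged 93936.5 and 82674.8 over the 12 libraries, so it does not describe each marker. The 7 nuclear long non-coding RNAs, a sign of RNA quality, summed to 27682 to 28826 in BPS1, 30110 to 31608 in BPS2 and 34241 to 42536 in control, while the sums of 13 mitochondrially encoded genes overlapped between all 3 groups. For other cell types the summed ranges overlapped between all 3 groups (fibroblast 7 genes, Schwann 5, endothelial 4, leukocyte 4). No listed gene was at 0 in every library, and the Schwann cell factor SOX10 averaged 0.167. The part of these shifts in the results was not tested. In bulk RNA, fewer cells expressing a gene and less RNA per cell cannot be told apart. Separate cultures are not stated for libraries within a group, and p-values therefore describe library-to-library spread, which may be technical.

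The most abundant of these ephrin, netrin and slit genes in KELLY cells were UNC5B, SLIT3, EPHB3 and UNC5C; guidance genes of other families were not ranked. Levels between genes are compared here as normalized count per kilobase of the longest coding transcript in GENCODE release 29, averaged over the 12 libraries. Of the 34 members with a length there, 14 reached 100 per kb, 10 lay between 10 and 100 and 10 lay under 10. UNC5B, a netrin receptor, was the highest at 1826 per kb, followed by SLIT3 at 1377, EPHB3 at 828 and UNC5C at 576. The library ranges of UNC5B (1309 to 2444) and SLIT3 (1187 to 1496) overlapped, although UNC5B was above SLIT3 in each of the 12 libraries. On this length SLIT3 lay above EPHB3 with no overlap, and UNC5C above the ephrin-B gene EFNB1 (277 per kb) with none.

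Below these, neighbours in the order were mostly not separated. UNC5A (237), ROBO1 (202), EFNA5 (166), EFNB3 (163), EFNA1 (157), EFNA4 (151), ROBO2 (145), EFNA3 (135) and EPHB2 (133) formed a run in which each gene's range overlapped that of the next. The netrin receptors that mediate attraction were scarce beside UNC5A, UNC5B and UNC5C: NEO1, which encodes neogenin, stood at 33.7 per kb and DCC at 1.53. The other UNC5 gene, UNC5D, stood at 2.68, below NEO1. The netrin gene NTN1 stood at 9.61. With the union of exons as the length instead, no member moved by more than 3 places, but 5 levels fell by over 1.5 times (ROBO2, EPHA10, SLIT2, ROBO3 and EPHA6). ROBO2 then stood at 77.8 per kb, which left 13 members at 100 or more.

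**Figure D1:**
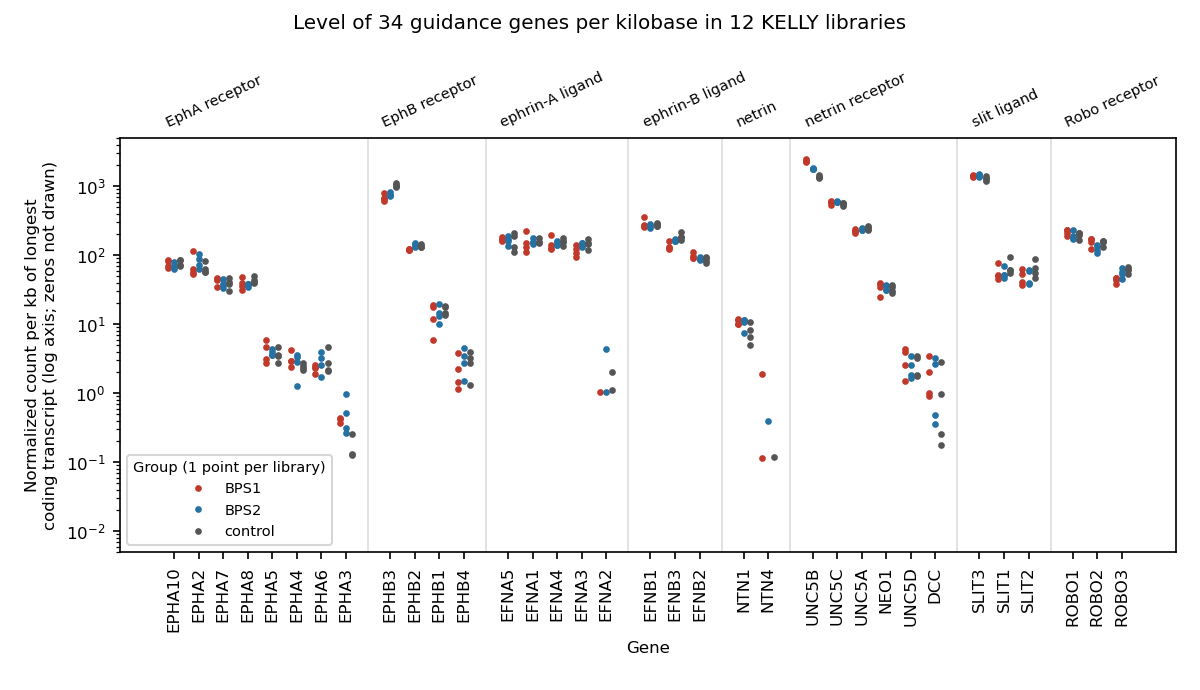
Normalized count per kilobase of the longest coding transcript (log axis) for the 34 members with a length, grouped by role, with 1 point per library in BPS1, BPS2 and control (n = 4 each); libraries at 0 are not drawn. UNC5B (1826 per kb on average), SLIT3 (1377), EPHB3 (828) and UNC5C (576) stand above the rest, and DCC (1.53), EFNA2, EPHA3 and NTN4 lie lowest.

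A gene entered the test where 4 or more libraries held 10 or more normalized counts, which 31 members met. The other 5, EPHA1, EPHA3, EPHB6, EFNA2 and NTN4, were too low. EFNA2 was listed at 0 in 7 libraries and NTN4 in 8. The rows of EPHA1 and EPHB6 carry gene identifiers that were not found in release 29, which has other identifiers for both symbols, so their low values (1.06 to 11.9 for EPHA1 and 3.39 to 11.2 for EPHB6) may not represent these genes.

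Among the 31 members tested, UNC5B rose with both oligonucleotides and more with BPS1, EPHB3 fell with both, and EFNB3 and ROBO3 fell with BPS1. Testing was by limma on log2(normalized count + 1) with all 20454 genes, and a gene was called at a Benjamini-Hochberg adjusted p under 0.05. In BPS1 against control, 4 members (12.9%) were called, 1 higher and 3 lower, against 8.60% of all genes tested. In BPS2 against control 2 members (6.45%) were called, 1 higher and 1 lower, against 1.21% of all genes, and in BPS2 against BPS1 1 member (3.23%), against 3.93%. The median log2 fold change of the members was 0.02 in BPS1 and −0.02 in BPS2 against control, beside a median of −0.00 and 0.00 over all genes. Of all genes, 4.29% were called higher and 4.32% lower in BPS1, 0.821% and 0.386% in BPS2, and 2.30% and 1.63% in BPS2 against BPS1. These shares moved with single libraries. In BPS1 the share of all genes was 11.6% without BPS1 replicate 4, 5.44% without control replicate 2 and 5.62% without BPS1 replicate 3. In BPS2 it was 2.63% without BPS1 replicate 4 and 0.556% to 0.765% without any 1 BPS2 library or control replicate 2, 3 or 4. In BPS2 against BPS1 it was 8.63% without BPS1 replicate 4 and 2.32% to 2.50% without BPS1 replicate 2 or 3 or any 1 BPS2 library.

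Members whose groups did not overlap were also counted. In BPS1 against control 1 member (3.23%) lay wholly above and 4 (12.9%) wholly below, against 7.50% and 6.81% of all genes. In BPS2 against control 2 (6.45%) lay above and 2 (6.45%) below, against 5.41% and 4.23%. In BPS2 against BPS1 2 (6.45%) lay above, EPHB2 and EFNB3, and UNC5B (3.23%) lay below, against 6.08% and 5.80%. All directions together, 5, 4 and 3 of 31 members did not overlap (16.1%, 12.9% and 9.68%), against 14.3%, 9.65% and 11.9% of all genes. The comparisons with control share the control libraries and are not independent of each other.

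**Figure D2:**
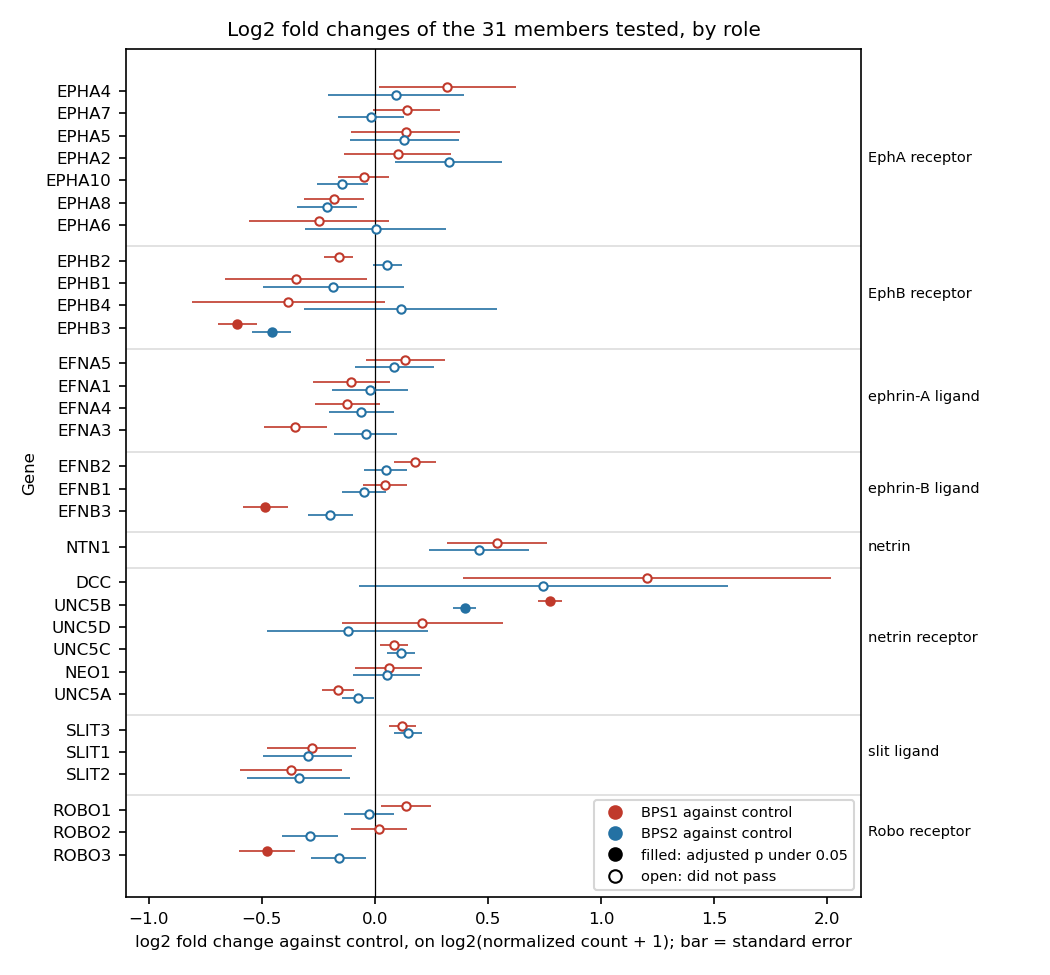
Log2 fold change against control, on log2(normalized count + 1), of the 31 members tested, by role, for BPS1 and BPS2 (bars are the standard error of the fit, 4 libraries per group); filled points had an adjusted p under 0.05. The filled points are UNC5B at 0.77 in BPS1 and 0.40 in BPS2, EPHB3 at −0.61 and −0.46, and EFNB3 (−0.48) and ROBO3 (−0.48) in BPS1.

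Among the netrin receptors UNC5B rose, and the other 5 were not called in any comparison. UNC5B (ENSG00000107731, chromosome 10 from 71212570 to 71302864, plus strand of GRCh38) encodes a repulsive netrin receptor that can also trigger cell death when netrin is absent. Its normalized count was 15408, 15683, 15880 and 16722 in the BPS1 libraries, 12103, 12034, 12660 and 12213 in the BPS2 libraries, and 9183, 9274, 8956 and 9820 in the control libraries. The 3 groups formed separate ranges, with BPS1 highest, BPS2 between and control lowest.

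The mean of UNC5B was 15923 ± 567 in BPS1, 12252 ± 282 in BPS2 and 9308 ± 367 in control (SD, n = 4 each), or 1.71 times control in BPS1 and 1.32 times in BPS2. On the log2 scale that was 0.77 ± 0.05 (SE; limma adjusted p = 2.79e-06) for BPS1 over control and 0.40 ± 0.05 for BPS2 (0.00239). BPS2 lay below BPS1 by a log2 difference of −0.38 ± 0.05 (adjusted p = 0.00130). Each comparison had an exact two-sided permutation p of 0.0286, the smallest that 70 arrangements allow. The calls held without any single library and without both libraries that stood apart (0.74 and 0.39 against control). An antisense gene, UNC5B-AS1, overlaps UNC5B and averaged 4.12 normalized counts.

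UNC5B made up more of the summed netrin receptor level in treated cells. Per kilobase it was 72.1% to 75.6% of the 6 receptors in BPS1, 66.4% to 68.5% in BPS2 and 61.2% to 62.5% in control. The summed level per kb was 3123 to 3232 in BPS1, 2620 to 2700 in BPS2 and 2140 to 2324 in control. UNC5C, the next repulsive receptor, held 5283 to 6099 in BPS1, 5770 to 6067 in BPS2 and 5080 to 5718 in control. Its log2 fold change was 0.08 in BPS1 (95% interval −0.05 to 0.22) and 0.11 in BPS2 (−0.02 to 0.25), and neither was called (adjusted p = 0.477 and 0.526). In BPS2 the 4 UNC5C libraries lay just above those of control, as 5.41% of all genes tested did.

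**Figure D3:**
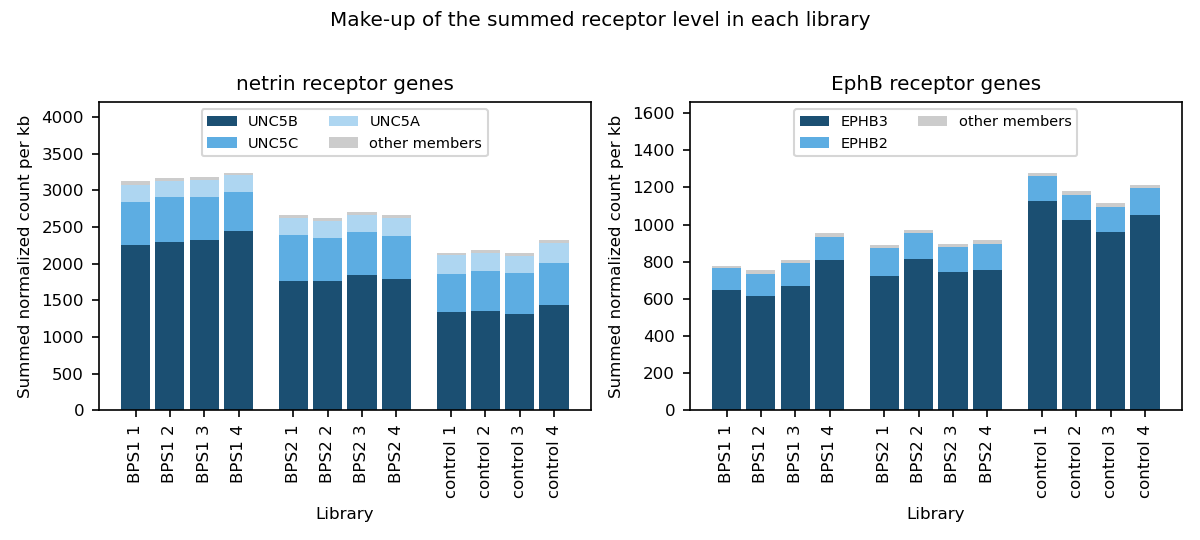
Summed normalized count per kilobase of the 6 netrin receptor genes (left) and of 4 EphB receptor genes (right) in each library of BPS1, BPS2 and control, divided by gene. UNC5B fills 72.1% to 75.6% of the netrin receptor sum in BPS1, 66.4% to 68.5% in BPS2 and 61.2% to 62.5% in control; the EphB sum is 754 to 955 in BPS1, 888 to 970 in BPS2 and 1114 to 1276 in control.

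UNC5A, also a repulsive receptor, averaged 880 ± 41.2 in BPS1, 935 ± 30.3 in BPS2 and 985 ± 61.9 in control, and neither difference passed (adjusted p = 0.202 and 0.775). NEO1 averaged 254 ± 48.9, 249 ± 24.0 and 240 ± 27.9 in BPS1, BPS2 and control, with its ranges overlapping. UNC5D ranged from 13.0 to 38.0 and DCC from 1.80 to 35.8 over the 12 libraries. DCC spanned most of that range in every group, so its log2 fold change of 1.20 in BPS1 had an adjusted p of 0.426.

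Of the 2 netrin members NTN1 passed the filter, and it was low. It had 59.6, 67.5, 59.8 and 70.7 normalized counts in BPS1, 68.9, 68.8, 45.1 and 63.6 in BPS2, and 29.8, 64.1, 49.9 and 38.6 in control. The groups overlapped, since control replicate 2 lay within the treated ranges. Its log2 fold change was 0.54 ± 0.22 in BPS1 and 0.46 ± 0.22 in BPS2, and neither was called (adjusted p = 0.160 and 0.457). NTN3, a further secreted netrin on the list of pathway genes and named after its values were seen, stood higher per length, at 21.2 per kb. It had 56.8, 62.0, 47.7 and 54.6 normalized counts in BPS1, 29.7, 37.4, 28.0 and 31.6 in BPS2, and 26.4, 31.5, 47.0 and 53.4 in control. BPS1 lay wholly above BPS2 and overlapped control. By limma, NTN3 was called neither in BPS1 (0.52 ± 0.21, adjusted p = 0.166) nor in BPS2 (−0.27 ± 0.21, 0.714) against control, nor between BPS2 and BPS1 (−0.79 ± 0.21, 0.0623).

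Among the EphB receptors EPHB3 fell with both oligonucleotides and no other member was called. EPHB3 (ENSG00000182580, chromosome 3 from 184561784 to 184582409, plus strand of GRCh38) encodes a kinase receptor for ephrin-B ligands. The 250 bases before its RefSeq start (chr3:184561535-184561784, plus strand, GRCh38.p14) are shown because EPHB3 was the highest EphB gene and fell in both comparisons. Capitals mark the GC box GGGCGG, searched on both strands.

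EPHB3 upstream: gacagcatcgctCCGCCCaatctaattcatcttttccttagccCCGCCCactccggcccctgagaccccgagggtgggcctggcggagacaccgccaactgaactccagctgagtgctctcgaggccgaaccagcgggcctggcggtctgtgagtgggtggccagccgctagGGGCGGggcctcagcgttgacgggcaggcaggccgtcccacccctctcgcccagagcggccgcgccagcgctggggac

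The window is 70.0% G or C, beside a median of 58.0% over 27305 promoter windows of that length, and holds 3 GC boxes. A GC box was found in 42.3% of all those windows. The window held none of the E-box CACGTG, which MYC proteins bind (in 6.49% of windows), the TCF core CTTTGA (11.4%) or the AP-1 site TGANTCA (6.60%), each searched on both strands, none overlapping a GC box there. These matches describe the letters only.

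EPHB3 had 2741, 2607, 2830 and 3434 normalized counts in BPS1, 3052, 3443, 3159 and 3188 in BPS2, and 4774, 4331, 4067 and 4454 in control. Every treated library lay below every control library, and BPS1 replicate 4 was the highest of its group. The mean was 2903 ± 366 in BPS1, 3210 ± 166 in BPS2 and 4406 ± 293 in control, or 0.659 and 0.729 times control. By limma, BPS1 differed from control by −0.61 ± 0.09 (adjusted p = 9.93e-04) and BPS2 by −0.46 ± 0.09 (adjusted p = 0.0238) on the log2 scale.

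The BPS2 call of EPHB3 was near the threshold. It was lost without control replicate 1, 2 or 4 (adjusted p = 0.0569, 0.0707 and 0.0679) or BPS2 replicate 1, 3 or 4 (0.0806, 0.0846 and 0.0754), and it held without both libraries that stood apart (−0.42, adjusted p = 0.00137). BPS2 lay above BPS1 by 0.15 (95% interval −0.04 to 0.34, adjusted p = 0.418). That difference was called at 0.24 without BPS1 replicate 4 (adjusted p = 0.0468) and at 0.23 with library weights (adjusted p = 0.0152).

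EPHB2, the next EphB receptor, had 1297, 1290, 1352 and 1340 normalized counts in BPS1, 1650, 1514, 1437 and 1539 in BPS2, and 1432, 1487, 1430 and 1552 in control. All BPS1 libraries lay below all others, but the log2 fold change of −0.16 ± 0.07 against control was not called (adjusted p = 0.164), nor was the 0.22 by which BPS2 exceeded BPS1 (adjusted p = 0.0936), which passed with library weights (0.0162). Of all genes tested, 6.81% had BPS1 libraries wholly below those of control. EPHB1 ranged from 28.0 to 90.8 and EPHB4 from 4.91 to 19.4 over the 12 libraries. EPHB3 made up 81.7% to 84.9% of the EphB sum per kb in BPS1, 81.2% to 83.8% in BPS2 and 86.2% to 88.3% in control.

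**Figure D4:**
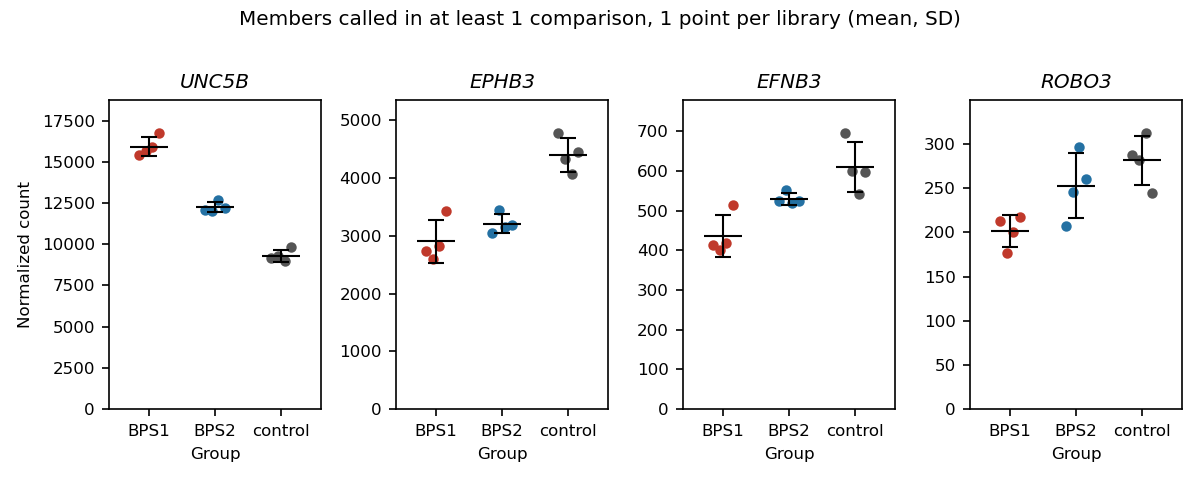
Normalized count of the 4 members called in at least 1 comparison, drawn by library beside the group mean (line) and SD (bar) of BPS1, BPS2 and control (n = 4 each; each vertical axis starts at 0). UNC5B averages 15923, 12252 and 9308 in the 3 groups, EPHB3 2903, 3210 and 4406, EFNB3 436, 530 and 609, and ROBO3 202, 253 and 281.

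Among the ephrin-B ligands, which EphB receptors bind, EFNB3 fell with BPS1. EFNB3 (ENSG00000108947, chromosome 17 from 7705202 to 7711378, plus strand) is a transmembrane ligand that acts as a midline barrier for axons in mice. It had 413, 400, 417 and 514 normalized counts in BPS1, 525, 551, 518 and 524 in BPS2, and 695, 601, 543 and 598 in control. BPS1 replicate 4, at 514, was the highest of its group and still lay below every BPS2 and control library.

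The mean of EFNB3 was 436 ± 52.3 in BPS1, 530 ± 14.6 in BPS2 and 609 ± 62.9 in control. In limma the log2 difference from control was −0.48 ± 0.10 for BPS1 (adjusted p = 0.00946) and −0.20 ± 0.10 for BPS2 (adjusted p = 0.494, 95% interval −0.41 to 0.02). BPS2 exceeded BPS1 by 0.29 ± 0.10, which was not called (adjusted p = 0.146) but was without BPS1 replicate 4 (0.37, adjusted p = 0.0211). Its row came in whole reads in every library. BPS1 replicate 2, the lowest, held 426 reads with a 95% exact Poisson interval of 386.5 to 468.4, and control replicate 3 held 555 (509.8 to 603.2). The interval of BPS1 replicate 4, at 470 reads (428.5 to 514.5), overlapped those of control replicate 3 and BPS2 replicate 3 (500 reads, 457.1 to 545.8). Such intervals cover counting error only.

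The other ephrin-B ligands did not pass. EFNB1, the most abundant, had 874, 856, 903 and 1175 in BPS1, 892, 830, 894 and 926 in BPS2, and 956, 926, 887 and 889 in control. Apart from BPS1 replicate 4 the groups lay close together, with a log2 fold change of 0.05 in BPS1 (95% interval −0.16 to 0.26) and −0.05 in BPS2 (−0.26 to 0.16). EFNB2, known for its part in vessel and neural crest patterning, averaged 488 ± 47.2 in BPS1, 445 ± 19.4 in BPS2 and 431 ± 39.1 in control (adjusted p = 0.293 and 0.900).

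No ephrin-A ligand or EphA receptor was called in any comparison, although EFNA3 was under some alternatives. EFNA5, the highest ephrin-A gene, had 873, 979, 870 and 919 in BPS1, 858, 920, 735 and 1028 in BPS2, and 590, 709, 1007 and 1113 in control. The treated libraries all lay inside the wide control range. EFNA4, EFNA3 and EFNA1 lie side by side on the plus strand of chromosome 1, between 155063731 and 155134857. EFNA3 averaged 206 ± 34.5 in BPS1, 254 ± 20.5 in BPS2 and 263 ± 40.3 in control, and its −0.35 ± 0.14 in BPS1 was not called (adjusted p = 0.152). That EFNA3 difference was called without BPS1 replicate 4 (−0.45, adjusted p = 0.0495), with library weights (0.0325) and with the GC trend removed (0.0342). EFNA1 averaged 296 ± 92.0, 304 ± 27.4 and 309 ± 24.3, and EFNA4 185 ± 42.5, 190 ± 13.0 and 198 ± 20.6, in BPS1, BPS2 and control. In BPS1 all 3 neighbours were highest in replicate 4.

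Of the 9 EphA receptors 7 were tested, with log2 fold changes from −0.25 to 0.32 in BPS1 and −0.21 to 0.33 in BPS2 (lowest adjusted p of 0.466 and 0.603). EPHA10, a receptor with an inactive kinase domain, had 441, 466, 354 and 379 in BPS1, 371, 386, 343 and 430 in BPS2, and 383, 396, 455 and 458 in control. Its groups overlapped throughout. EPHA2 reached 463 in BPS1 replicate 2 and 420 in BPS2 replicate 3, against 226 to 322 in control, with the other BPS1 libraries at 210 to 249. EPHA8 lay at 173 to 189 in BPS2, wholly below the 194 to 245 in control, as 4.23% of all genes tested did. EPHA8 was not called (−0.21 ± 0.13, limma adjusted p = 0.603). EPHA7 averaged 282 ± 37.0, 252 ± 32.9 and 257 ± 44.6 in BPS1, BPS2 and control. EPHA4, EPHA5 and EPHA6 stayed between 6.92 and 49.5 over the 12 libraries.

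Among the Robo receptors ROBO3 fell with BPS1. ROBO3 (ENSG00000154134, chromosome 11 from 124865386 to 124881470, plus strand) is the divergent Robo that lets commissural axons cross the midline. It had 213, 177, 200 and 217 normalized counts in BPS1, 208, 246, 297 and 261 in BPS2, and 288, 282, 312 and 244 in control. BPS1 lay below control without overlap, while BPS2 overlapped both. ROBO3 differed from control by −0.48 ± 0.12 with BPS1 (limma adjusted p = 0.0307) and by −0.16 ± 0.12 with BPS2 (adjusted p = 0.695) on the log2 scale.

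The ROBO3 call was near the threshold and was lost without control replicate 1, 2 or 3 (adjusted p = 0.0603, 0.0743 and 0.0913) or BPS1 replicate 2 or 3 (0.0891 and 0.0709). Without both libraries that stood apart the log2 fold change was −0.50 (adjusted p = 0.0358). BPS2 exceeded BPS1 by 0.32 ± 0.12, which was not called (adjusted p = 0.202) but was with library weights (0.38, adjusted p = 0.0325). Release 29 gives ROBO3 21 transcripts, and the row does not separate them.

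ROBO1 and ROBO2, the main Slit receptors of neurons, were more abundant per kb and were not called. ROBO1 had 1739, 1732, 1593 and 1416 in BPS1, 1740, 1426, 1303 and 1340 in BPS2, and 1262, 1597, 1466 and 1570 in control, with all groups overlapping. ROBO2 averaged 1392 ± 198 in BPS1, 1125 ± 140 in BPS2 and 1370 ± 139 in control. Its log2 fold change was −0.29 ± 0.12 in BPS2 against control (adjusted p = 0.390) and −0.30 ± 0.12 in BPS2 against BPS1 (adjusted p = 0.222). The difference from BPS1 was called without BPS1 replicate 4 (−0.41, adjusted p = 0.0374).

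The Slit ligands were not called. SLIT3 had 13440, 14128, 13672 and 13371 normalized counts in BPS1, 13678, 14340, 14520 and 13028 in BPS2, and 11519, 12507, 12655 and 13556 in control. Control replicate 4 lay within both treated ranges. The log2 fold change was 0.12 (95% interval −0.01 to 0.25) in BPS1 and 0.15 (0.02 to 0.28) in BPS2, with adjusted p = 0.260 and 0.366. SLIT1 averaged 446 ± 113, 436 ± 84.8 and 541 ± 141, and SLIT2 310 ± 74.3, 318 ± 79.5 and 404 ± 112, in BPS1, BPS2 and control. SLIT3 made up 93.1% ± 1.34 of the Slit sum per kb in BPS1, 93.2% ± 1.19 in BPS2 and 90.7% ± 2.72 in control.

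Beyond the ligands and receptors, 68 genes that act with them were listed, of which 66 were tested and few were called. In BPS1 against control 2 were higher and 2 lower (6.06%, against 8.60% of all genes), in BPS2 against control 1 was lower (1.52%, against 1.21%) and in BPS2 against BPS1 1 was lower (1.52%, against 3.93%). The median log2 fold change of the list was −0.01 in BPS1 and −0.01 in BPS2 against control.

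NCK1, an adaptor that links Eph receptors and other kinases to actin, fell with both. It had 601, 630, 639 and 669 normalized counts in BPS1, 582, 565, 550 and 502 in BPS2, and 735, 754, 840 and 845 in control. Its log2 difference from control was −0.32 ± 0.08 with BPS1 (limma adjusted p = 0.0270) and −0.53 ± 0.08 with BPS2 (adjusted p = 0.00619). All treated libraries lay below all control libraries. The BPS1 call was lost without control replicate 3 or 4 (adjusted p = 0.0819 and 0.0753) or BPS1 replicate 1, 2 or 3 (0.0679, 0.0645 and 0.0615). IL20RB, which averaged 267.6 normalized counts, overlaps NCK1 on the same strand, so reads could be split between them.

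ANKS1A, which encodes an adaptor that binds EphA receptors, rose with BPS1. It had 2321, 2352, 2391 and 2100 in BPS1, 1527, 1541, 1752 and 1518 in BPS2, and 1573, 1609, 1697 and 1857 in control. BPS1 stood above both other groups, by 0.44 ± 0.08 over control (limma adjusted p = 0.00359), and BPS2 lay below BPS1 by a log2 difference of −0.53 ± 0.08 (adjusted p = 0.00191).

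ARHGAP39, which acts downstream of Robo in flies, rose with BPS1, at 508, 509, 519 and 432 against 290, 334, 441 and 348 in control, where control replicate 3 overlapped. Its log2 fold change was 0.49 ± 0.13 (limma adjusted p = 0.0383). The call was lost without control replicate 1, 2 or 4 (adjusted p = 0.0864, 0.0989 and 0.0789), BPS1 replicate 1, 2 or 3 (0.0810, 0.0913 and 0.0972) or BPS2 replicate 2 (0.0535).

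RGMA, a ligand of neogenin, fell with BPS1, at 260, 328, 287 and 314 against 350, 366, 394 and 435 in control (−0.38 ± 0.10, limma adjusted p = 0.0407). BPS2 held 393, 429, 382 and 357, above BPS1, and that difference of 0.40 was not called (adjusted p = 0.0544). Leaving out any library but control replicate 1, BPS1 replicate 2 or BPS1 replicate 4 ended the BPS1 call (adjusted p of 0.0502 to 0.112).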

How the data were processed

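RNA-seq libraries of ribosome-depleted total RNA were stranded single reads of 100 bases, per the labels' protocols. Per the submitters' processing notes, the authors used FastQC 0.11.7, Salmon 0.8.2 and DESeq2 with GRCh38. Their annotation release is not given in the sources used. The deposited values are a signal, the authors' normalized count per gene and library. BPS2 columns were matched by sample title, as their description reads KPAS, and the BSP1 column is BPS1 replicate 3.

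Genes with at least 10 in at least 4 of 12 libraries (20454) were fitted with limma 3.58.1 (R 4.3.3; eBayes with a trend) on log2(value + 1), group as the only term. Fold changes on that scale understate low genes. The value of 1 read was 0.940 to 1.09; 4 members were in whole reads (tolerance 0.01) throughout, and counts were otherwise not recovered. The fit was also run on simulated data in which the residuals of each gene were shuffled between libraries. Such shuffling removes library-wide trends, as with GC content, so the simulation did not cover them. The members and lists were chosen with earlier results of these data known. Members called, and the highest of each role, are given by library; pathway genes were named if called. EPHB2, EPHA2 and EPHA8 were added after their values were seen. Promoter letters are from RefSeq (GRCh38.p14), which held 31 members and not UNC5B or EFNB3. Alternatives were pseudocounts of 0.5 and 5, no filter or 50, median-of-ratios and quantile scaling, robust variances, library weights, a replicate block, fits of the groups compared and leaving out each library; a GC correction and the omission of 2 libraries were added after seeing the data.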

Additional observations from a re-analysis of the deposited data

Results flagged for a closer look

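Among the 31 members tested in 3 groups each (93 sets of 4 libraries), 6 had a library far from the other 3 by Dixon's test, and chance gives about 1 in 20. Control replicate 1 was high for SLIT1, at 750 against 444 to 491 in the other control libraries, and for EFNA1, at 345 against 293 to 301. BPS1 replicate 4 was high for EFNB1, at 1175 against 856 to 903, and for EFNB3, at 514 against 400 to 417. EPHA2 was high in BPS1 replicate 2, at 463 against 210 to 249, and EPHA8 was low in BPS2 replicate 2, at 173 against 187 to 189.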

How the results depend on the processing

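No fold change of UNC5B, EPHB3, EFNB3, ROBO3, NEAT1 or a called pathway gene reversed under any alternative run. UNC5B kept its 3 calls under all 12 alternatives and all 12 omissions. Leaving out each library gave 3 to 5 members called in BPS1 against control, 1 to 2 in BPS2 against control and 1 to 4 in BPS2 against BPS1, and 1 to 5, 1 to 2 and 1 to 7 pathway genes; the NEAT1 log2 fold change in BPS2 ran from −0.76 to −0.66, and its call was lost without any 1 control library or BPS2 replicate 2, 3 or 4. With library weights 7 members were called in BPS2 against BPS1, beside 3626 of all 20454 genes tested. Pathway genes then numbered 11, 5 and 15 in BPS1 and BPS2 against control and BPS2 against BPS1, beside 3382, 1296 and 3626 genes. Without control replicate 1 and BPS1 replicate 4 together, 6 members were called in BPS2 against BPS1, beside 3498 of 20161 genes. Pathway genes then numbered 12, 9 and 14 in the same comparisons, beside 2772, 1923 and 3498 genes. With the GC trend removed 2 members were called in BPS2 against BPS1, beside 984 of 20454 genes. Pathway genes called in BPS1 against control numbered 1 with no filter, beside 1267 of 44355 genes. They numbered 1 in a fit of only the groups compared, beside 907 of 20454 genes. In BPS2 against BPS1 they numbered 2 with a minimum of 50, beside 849 of 14307 genes. There a fit of only the groups compared also called 2 pathway genes, beside 542 of 20454 genes. ROBO3 in BPS1 was also lost with no filter (adjusted p = 0.0560), in the fit of only the groups compared (0.0530) and with the replicate block (0.0666). Library weights, and the omission of both libraries, also called ROBO2 lower in BPS2 against control (adjusted p = 0.0379 and 0.0301).

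Replicate numbers showed no clear pairing of the libraries. Deviations of same-numbered libraries correlated at −0.272 to 0.103 (median −0.0153), and those of differently numbered libraries at −0.212 to 0.424 (median 0.00581). A weak pairing could be missed by this check. With the replicate number as a block, 1 member (UNC5B) was called in BPS2 against control, and 1 pathway gene in BPS1 against control. Over all genes the block gave 1067, 118 and 447 calls (BPS1 and BPS2 against control, BPS2 against BPS1) beside 1760, 247 and 803; library weights gave 3382, 1296 and 3626, the omission of both libraries 2772, 1923 and 3498, and a fit of only the groups compared 907 in BPS1. For members near 10 normalized counts, depth limits what could be detected.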
